A study of Homo sapiens with 8 samples.

Results

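Small nucleolar RNA (snoRNA) host transcripts were followed by gene name: GAS5, ZFAS1, SNHG1, SNHG5, SNHG6, SNHG7, SNHG8, SNHG12, SNHG15 and SNHG16. All 10 had a row among the 58434 rows of the NCI-H1688 table, and 9 had a row among the 17169 rows of the NCI-H146 table, where SNHG6 was not analysed here. NCI-H1688 and NCI-H146 are established human cell lines, labelled as small cell lung cancer (SCLC). In each line, cells infected with KLF9 shRNA lentivirus were set against cells infected with control shRNA lentivirus, with 2 libraries in each group and 8 in all. KLF9 is a zinc-finger transcription factor that binds GC-rich and CACCC-type DNA. Every group was grown under puromycin for 2 weeks and carried the vector, so each is a stably selected population, and the hairpin sequences were not named in the labels.

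A snoRNA host gene is transcribed as an ordinary spliced transcript whose introns hold one or more snoRNAs. The introns are trimmed to mature snoRNAs, which guide chemical changes on ribosomal RNA: box C/D snoRNAs guide ribose methylation and box H/ACA snoRNAs guide pseudouridylation. The spliced exons of the hosts described here code for no long protein, and many are translated briefly and then removed by nonsense-mediated decay. Several hosts begin with a terminal oligopyrimidine motif, a C at the transcript start followed by pyrimidines, which is also the mark of ribosomal protein messages and ties their translation and stability to growth signals. Poly(A) RNA was sequenced here, and the values are those of the host gene and not of the mature snoRNAs. Spliced and intron-retaining host transcripts were not separated. RefSeq places 37 snoRNAs inside these 10 genes, and 24 snoRNAs of RefSeq or GENCODE had a row in the NCI-H1688 table, all listed at 0.

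The hosts differ in what they carry. GAS5, a transcript named for its accumulation in growth-arrested cells, holds 11 snoRNAs, of which 10 are of the C/D class. SNHG1 holds 9, SNHG12 holds 4, ZFAS1 and SNHG16 hold 3 each, SNHG5 and SNHG7 hold 2 each, and SNHG6, SNHG8 and SNHG15 hold 1 each. In GENCODE 29 on GRCh38, SNHG1 spans chr11:62851988-62855914, SNHG5 chr6:85660950-85678748, SNHG12 chr1:28578538-28583132 and SNHG15 chr7:44983023-44986961, all on the minus strand and all annotated as noncoding. SNHG7, SNHG8 and SNHG15 carry H/ACA snoRNAs only, and SNHG12 carries 3 H/ACA snoRNAs beside 1 of the C/D class. One snoRNA is shown for each host whose level passed the test in either line, as GENCODE 29 gives it on GRCh38 in DNA letters, all on the minus strand. Capitals mark box C (TGATGA), box D (CTGA) or, in SNORA9, the ACA box; TGATGA was not found in SNORD99.
SNORD27, in SNHG1, chr11:62855012-62855083: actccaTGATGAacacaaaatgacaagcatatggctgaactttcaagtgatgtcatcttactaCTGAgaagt
SNORD50B, in SNHG5, chr6:85677589-85677658: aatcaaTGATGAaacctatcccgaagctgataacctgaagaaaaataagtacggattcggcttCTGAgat
SNORD99, in SNHG12, chr1:28578749-28578822: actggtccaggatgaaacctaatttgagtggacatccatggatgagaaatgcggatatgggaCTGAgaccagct
SNORA9, in SNHG15, chr7:44985378-44985510: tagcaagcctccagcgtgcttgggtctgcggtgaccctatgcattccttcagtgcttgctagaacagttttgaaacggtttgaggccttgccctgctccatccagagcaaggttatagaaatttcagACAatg

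Start windows were taken from RefSeq (GRCh38.p14) for the 8 hosts with an entry; SNHG6 and SNHG15 were not matched. They run from 40 bases before the annotated start to 20 bases after it, and capitals mark a C at the start and the pyrimidines that follow it. A subset is shown because they span the range of that run: GAS5 had none, SNHG1 had a run of 3, SNHG7 of 4, ZFAS1 and SNHG5 of 5, and SNHG12 of 11. The GAS5 window lies outside the GENCODE 29 gene (chr1:173863900-173868882, minus strand), so it is not the start of a GENCODE 29 transcript.
GAS5, chr1:173869026-173869085, minus strand: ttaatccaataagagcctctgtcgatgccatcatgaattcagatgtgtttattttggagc
SNHG1, chr11:62855866-62855925, minus strand: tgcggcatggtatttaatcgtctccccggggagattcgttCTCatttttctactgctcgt
SNHG7, chr9:136728165-136728224, minus strand: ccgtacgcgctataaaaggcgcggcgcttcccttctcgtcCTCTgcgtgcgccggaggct
ZFAS1, chr20:49278602-49278661, plus strand: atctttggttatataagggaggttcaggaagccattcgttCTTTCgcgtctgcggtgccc
SNHG5, chr6:85678714-85678773, minus strand: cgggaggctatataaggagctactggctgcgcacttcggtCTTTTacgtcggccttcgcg
SNHG12, chr1:28581854-28581913, minus strand: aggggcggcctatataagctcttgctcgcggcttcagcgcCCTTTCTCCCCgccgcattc

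A C followed by at least 3 pyrimidines stood at the start of 4 of the 8 hosts (50.0%). The same was true of 41 of 70 start regions of cytosolic ribosomal protein genes (58.6%) and of 5.45% of all 35116 RefSeq start regions. The letters TATAA were searched 20 to 40 bases before the start, on the strand that reads as the transcript does. They were found in 5 of the 8 hosts (62.5%), against 10.0% of the ribosomal protein start regions and 3.77% of all. Within the whole RefSeq start region (250 bases before to 50 after the start) and on either strand, GGGCGG was found in 7 hosts (87.5%, against 45.0% of all), CACCC in 6 (75.0%, against 59.9%), and CACGTG in SNHG7 alone (12.5%, against 7.26%). These 3 motifs were searched separately. RefSeq gives 1 start for each of these 8 hosts, and GENCODE 29 transcripts of a host start elsewhere. There, 6 of 29 GAS5 transcripts and 0 of 10 SNHG15 transcripts began with the C and at least 3 pyrimidines.

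Some libraries stood apart from their labels or their groups. KLF9 itself was at 1.95 and 1.60 TPM in the NCI-H1688 libraries labelled KLF9 shRNA, against 0.298 and 0.644 TPM in control, which goes against the label (log2 difference 0.92, limma adjusted p = 0.0952). In NCI-H146 it was at 24.9 and 32.3 CPM under KLF9 shRNA, against 67.0 and 61.9 CPM in control (-1.17, edgeR adjusted p = 0.0131; not called when either control library was left out, with adjusted p of up to 0.255). In NCI-H146, KLF9 shRNA replicate 1 had 8.56% of its counts in mitochondrially encoded genes, and the other 3 libraries had 0.897% to 1.20%. In NCI-H1688 the mitochondrially encoded share of TPM was 18.2% and 16.8% in libraries labelled KLF9 shRNA, against 15.4% and 14.7% in control, without overlap. The KLF9 shRNA replicates of NCI-H146 differed by more than 1 log2 unit in 6.60% of genes, against 0.708% between the control replicates. Among neuroendocrine markers, NEUROD1 and INSM1 were listed at 0 in all NCI-H1688 libraries. SYP, a synaptic vesicle protein, was at 0.514 and 0.262 TPM in the NCI-H1688 libraries labelled KLF9 shRNA, against 0.392 and 0.243 TPM in control. In NCI-H146, SYP was at 4.06 and 9.30 CPM under KLF9 shRNA, against 1.48 and 1.48 CPM in control (log2 fold change 2.17, edgeR adjusted p = 0.00748; not called without control replicate 2, adjusted p = 0.143). CHGA, a secretory granule protein, was at 2.44 and 3.12 CPM under KLF9 shRNA, against 0.202 and 0.531 CPM in control (2.87, adjusted p = 0.00525; not called without control replicate 2, adjusted p = 0.161). Total counts in NCI-H146 ran from 15406264 to 16109803. The NCI-H1688 table holds TPM, for which depth is unknown. Over the rows kept, its TPM summed to 852160 and 842439 in libraries labelled KLF9 shRNA and to 844687 and 885111 in control. The main fit did not rescale these totals. Where the labels call samples replicates, nothing says that they came from separate cultures, so each p-value measures the spread between these samples.

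In NCI-H1688, GAS5 was the most abundant of the 10 hosts, at 517–615 TPM over the 4 libraries, followed by ZFAS1 at 281–352 TPM and SNHG6 at 195–249 TPM. SNHG8 (132–198 TPM) and SNHG1 (106–155 TPM) came next. SNHG16 (71.9–89.5 TPM), SNHG5 (66.7–103 TPM), SNHG15 (41.1–70.6 TPM) and SNHG7 (34.1–42.3 TPM) followed, and SNHG12 was lowest at 12.6–15.5 TPM. The ranges of GAS5 and ZFAS1, ZFAS1 and SNHG6, SNHG1 and SNHG16, and SNHG7 and SNHG12 were separate, and all other neighbours in that order overlapped. In NCI-H146 the levels were set per kilobase of GENCODE 29 exon bases, since the gene models behind the table are not recorded. ZFAS1 had the highest group means there, at 41.2 ± 6.96 CPM per kilobase under KLF9 shRNA and 34.9 ± 6.95 in control (SD, n = 2 each). Its range over the 4 libraries overlapped that of SNHG7, whose KLF9 shRNA replicate 2 held the highest single value, 48.1 CPM per kilobase. SNHG12 was lowest, at 2.14 ± 0.620 CPM per kilobase under KLF9 shRNA and 0.594 ± 0.0764 in control. GAS5 ranked 5 of 9 under KLF9 shRNA and 6 of 9 in control, while SNHG1 ranked 6 under KLF9 shRNA and 2 in control.

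**Figure D1:**
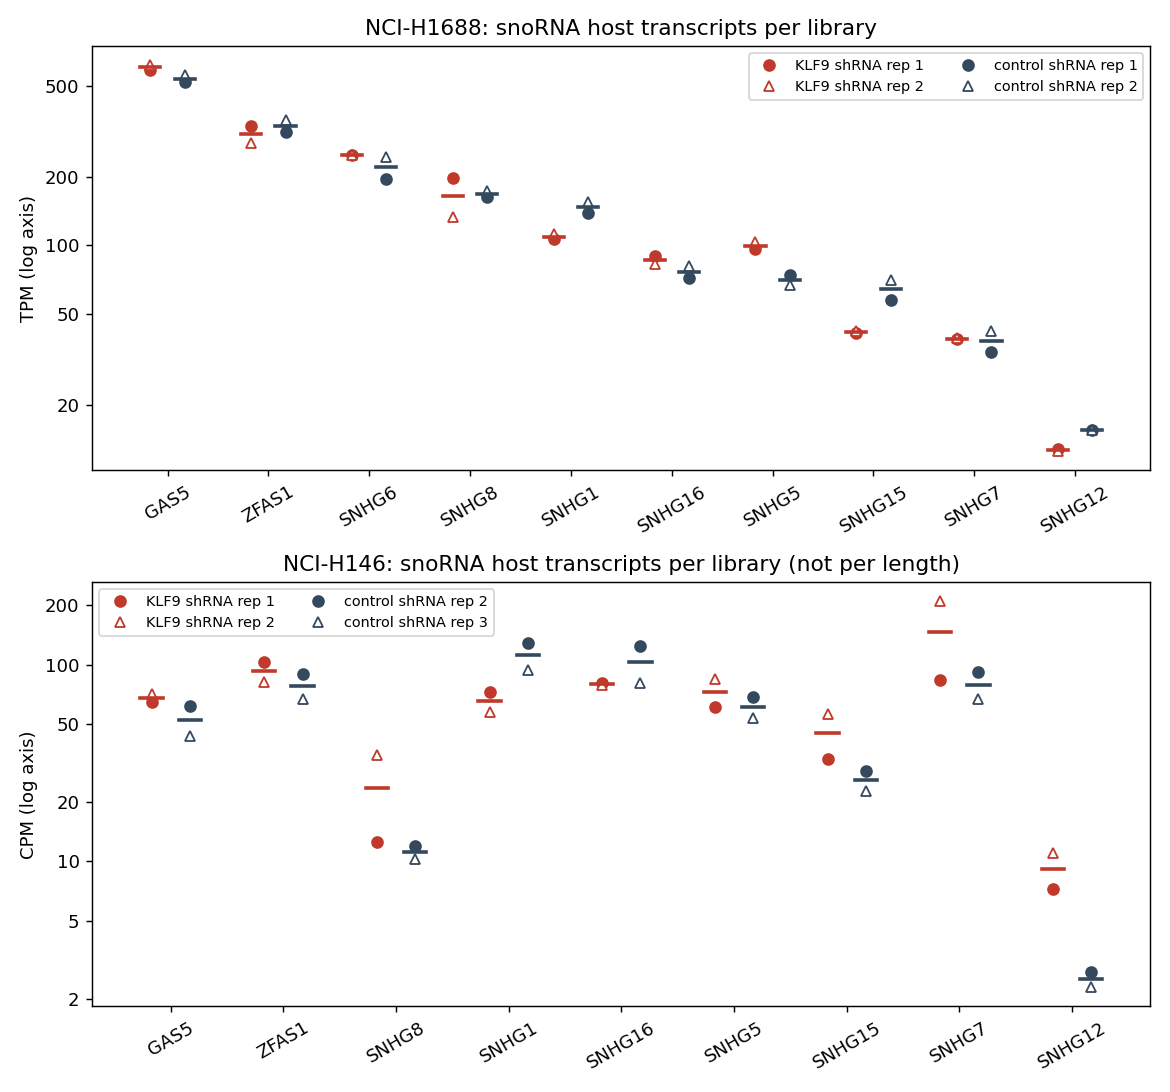
Level of each snoRNA host in every library of NCI-H1688 (TPM) and NCI-H146 (CPM), on log axes. Red marks KLF9 shRNA and dark marks control, circles are the lower-numbered replicate, triangles the higher-numbered one, and bars are group means. GAS5 stood at 517–615 TPM at the top of the NCI-H1688 panel, and SNHG12 was at the bottom of both panels.

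In NCI-H1688, SNHG5 was higher and SNHG1 and SNHG15 were lower in libraries labelled KLF9 shRNA than in control. These were 3 of the 10 hosts, where 16.0% of all 14754 genes tested were called (adjusted p under 0.05 by limma on log2(TPM + 1), tested where the mean reached 1 TPM). In that line 6.36% of genes were called higher and 9.67% lower. The groups did not overlap for 7 of the 10 hosts, against 62.7% of all genes. The 10 log2 differences ran from -0.61 to 0.50 with a median of -0.0082, beside a median of -0.021 over all genes tested. The summed level of the 10 hosts was 1751 and 1669 TPM in libraries labelled KLF9 shRNA and 1580 and 1754 TPM in control, so the sums overlapped. In bulk samples such as these, a change in the share of cells and a change in RNA per cell cannot be told apart.

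SNHG5, host of SNORD50A and SNORD50B, was at 95.9 and 103 TPM in libraries labelled KLF9 shRNA, against 74.1 and 66.7 TPM in control. Both labelled knockdown libraries lay above both controls, and the means were 99.6 ± 5.35 TPM in libraries labelled KLF9 shRNA and 70.4 ± 5.28 TPM in control (SD, n = 2 each). The ratio was 1.41, and the log2 difference was 0.50 ± 0.0797 (SE, limma adjusted p = 0.0255). SNHG1, known as the host of the U22 and U25 to U31 snoRNAs, was at 106 and 112 TPM in libraries labelled KLF9 shRNA, against 139 and 155 TPM in control. Both labelled knockdown libraries lay below both controls, with means of 109 ± 4.18 TPM in libraries labelled KLF9 shRNA and 147 ± 11.3 TPM in control (SD, n = 2 each). The ratio was 0.743, with a log2 difference of -0.42 ± 0.0750 (SE, limma adjusted p = 0.0307). SNHG15, host of SNORA9 and known as a short-lived transcript, was at 41.1 and 41.9 TPM in libraries labelled KLF9 shRNA, against 57.4 and 70.6 TPM in control. Again the groups did not overlap. The ratio was 0.648, with a log2 difference of -0.61 ± 0.112 (SE, limma adjusted p = 0.0342). All 3 calls were lost when any 1 of the 4 libraries was left out, with adjusted p from 0.0724 to 0.196 for SNHG1, 0.0760 to 0.183 for SNHG5 and 0.0631 to 0.199 for SNHG15. They were also lost with no filter on low values (adjusted p 0.0657 to 0.0878) and without the intensity trend (0.0723 to 0.0856), while each kept its direction. No gene of the line was called when either library labelled KLF9 shRNA was left out (0.00%), 0.162% of genes were called with control replicate 1 left out and 0.115% with control replicate 2 left out, and no other call named here for NCI-H1688 held with any 1 library left out.

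The other 7 hosts were not called in NCI-H1688. GAS5 was at 589 and 615 TPM in libraries labelled KLF9 shRNA, against 517 and 555 TPM in control, with no overlap (log2 difference 0.17 ± 0.0592 SE, adjusted p = 0.129). GAS5 was called higher by limma under quantile normalization (0.36, adjusted p = 0.0100) and not under TMM scaling (0.19, adjusted p = 0.0694). It was also called with mitochondrially encoded genes left out (0.24, adjusted p = 0.0206), a setting that also made the library totals equal. The cause of these differences was not tested. SNHG12 was at 12.9 and 12.6 TPM in libraries labelled KLF9 shRNA, against 15.5 and 15.5 TPM in control. These groups did not overlap either (log2 difference -0.27 ± 0.0779 SE, adjusted p = 0.0870). SNHG16, host of SNORD1A to SNORD1C, was at 89.5 and 83.1 TPM in libraries labelled KLF9 shRNA and 71.9 and 81.3 TPM in control (0.17, adjusted p = 0.237). SNHG6, host of SNORD87, was at 249 TPM in both libraries labelled KLF9 shRNA and at 195 and 243 TPM in control (0.19, adjusted p = 0.310). Neither SNHG16 nor SNHG6 overlapped between groups, but the control replicates of SNHG6 differed by more than the groups did. ZFAS1 was at 331 and 281 TPM in libraries labelled KLF9 shRNA and 313 and 352 TPM in control (-0.12, adjusted p = 0.476). SNHG7 was at 38.8 and 39.1 TPM in libraries labelled KLF9 shRNA and 34.1 and 42.3 TPM in control (0.03, adjusted p = 0.862). SNHG8 was at 198 and 132 TPM in libraries labelled KLF9 shRNA and 163 and 173 TPM in control (-0.05, adjusted p = 0.881). For ZFAS1, SNHG7 and SNHG8 the groups overlapped.

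In NCI-H146, SNHG12 was higher under KLF9 shRNA and was the 1 host of 9 that passed the test. Over all 13129 genes tested, 17.1% were called by edgeR's quasi-likelihood test on the counts, 8.01% higher and 9.12% lower. The groups did not overlap for 6 of the 9 hosts, against 62.5% of all genes. The hosts' log2 fold changes ran from -0.78 to 1.85 with a median of 0.36, beside a median of 0.0053 and quartiles of -0.50 and 0.50 over all genes. The median was 0.49 without KLF9 shRNA replicate 1, 0.18 without KLF9 shRNA replicate 2, 0.67 with control replicate 2 left out and 0.13 with control replicate 3 left out. The hosts summed to 518 and 684 CPM under KLF9 shRNA and 608 and 441 CPM in control, so the sums overlapped.

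**Figure D2:**
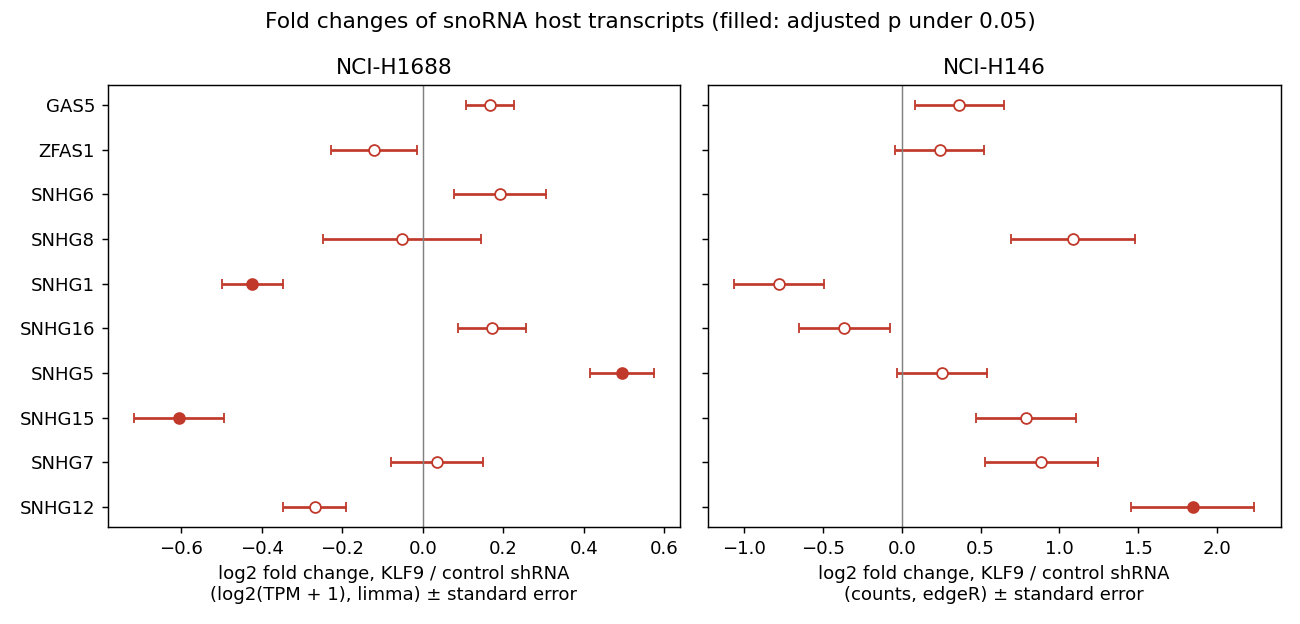
Log2 fold change of each host, KLF9 shRNA over control, with its standard error, in NCI-H1688 (limma on log2(TPM + 1)) and NCI-H146 (edgeR on counts). Filled points passed an adjusted p of 0.05: SNHG5, SNHG1 and SNHG15 in NCI-H1688 and SNHG12 in NCI-H146. The horizontal axes differ between the panels.

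SNHG12 had 107 and 176 counts under KLF9 shRNA, against 41 and 39 counts in control. On the CPM scale it was at 7.25 and 11.0 under KLF9 shRNA, against 2.76 and 2.30 in control, with means of 9.11 ± 2.64 under KLF9 shRNA and 2.53 ± 0.326 in control (SD, n = 2 each). Both KLF9 shRNA libraries lay above both controls. The ratio was 3.60, and the log2 fold change was 1.85 ± 0.392 (SE, edgeR adjusted p = 0.00726). The call held when either KLF9 shRNA library was left out, and was lost without control replicate 2 (2.02, adjusted p = 0.132) or control replicate 3 (1.72, adjusted p = 0.0703). Of all genes, 37.1% were called without KLF9 shRNA replicate 1 and 19.8% without KLF9 shRNA replicate 2, against 0.376% with control replicate 2 left out and 3.98% with control replicate 3 left out.

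The H/ACA hosts SNHG7, SNHG8 and SNHG15 had their highest value in KLF9 shRNA replicate 2. So did GAS5, SNHG5 and SNHG12, so this was not particular to the H/ACA hosts. SNHG8, host of SNORA24, was at 12.6 and 34.8 CPM under KLF9 shRNA, against 12.0 and 10.3 CPM in control (log2 fold change 1.09 ± 0.395 SE, edgeR adjusted p = 0.0661). SNHG7, host of SNORA17A and SNORA17B, was at 83.6 and 209 CPM under KLF9 shRNA, against 91.9 and 66.5 CPM in control (0.89 ± 0.360 SE, adjusted p = 0.0956). SNHG15 was at 33.0 and 56.4 CPM under KLF9 shRNA, against 28.9 and 22.9 CPM in control (0.79 ± 0.317 SE, adjusted p = 0.0932). The groups overlapped for SNHG7 and did not for SNHG8 and SNHG15. Without KLF9 shRNA replicate 2 the log2 fold changes were 0.08 for SNHG7, 0.18 for SNHG8 and 0.35 for SNHG15, none of them called. Without KLF9 shRNA replicate 1, the library rich in mitochondrial counts, all 3 were called higher, at 1.41, 1.66 and 1.14, beside the 37.1% of all genes called there.

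SNHG1 and SNHG16 were the hosts with a negative fold change in NCI-H146. SNHG1 had 1074 and 917 counts under KLF9 shRNA, against 1915 and 1598 counts in control. This was 72.7 and 57.2 CPM under KLF9 shRNA, against 129 and 94.3 CPM in control. The groups did not overlap, and the ratio was 0.582 (log2 fold change -0.78 ± 0.286 SE, edgeR adjusted p = 0.0681). SNHG1 was at -0.95 without KLF9 shRNA replicate 1 and -0.62 without KLF9 shRNA replicate 2. It was at -0.50 without control replicate 2 and -0.99 without control replicate 3. SNHG16 was at 80.3 and 78.7 CPM under KLF9 shRNA, against 124 and 80.6 CPM in control (-0.37, adjusted p = 0.391). Its control replicates differed by more than the groups did, and without control replicate 2 its value was 0.02. GAS5 was at 64.5 and 70.5 CPM under KLF9 shRNA, against 61.4 and 43.4 CPM in control, without overlap (0.36, adjusted p = 0.383). ZFAS1 was at 103 and 81.4 CPM under KLF9 shRNA and 89.3 and 67.2 CPM in control (0.24, adjusted p = 0.580). SNHG5 was at 60.8 and 84.8 CPM under KLF9 shRNA and 68.7 and 53.5 CPM in control (0.25, adjusted p = 0.563). The groups overlapped for ZFAS1 and SNHG5, and SNHG5 was at -0.0033 without KLF9 shRNA replicate 2.

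Single libraries stood at the extremes for many hosts in both lines. In NCI-H146, KLF9 shRNA replicate 2 held the highest value of 6 of the 9 hosts, and control replicate 3 the lowest of 7. Control replicate 2 of that line lay above control replicate 3 for all 9 hosts. In NCI-H1688, control replicate 2 held the highest value of 5 of the 10 hosts and lay above control replicate 1 for 9. These counts were not made over all genes, so they do not set the hosts apart from other genes. Relative to the control mean of NCI-H146, on the scale of log2(CPM + 1), the median host shifted by 0.16 in KLF9 shRNA replicate 1 and by 0.48 in replicate 2. The part of these library differences in the host fold changes was not tested beyond the values without each library.

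**Figure D3:**
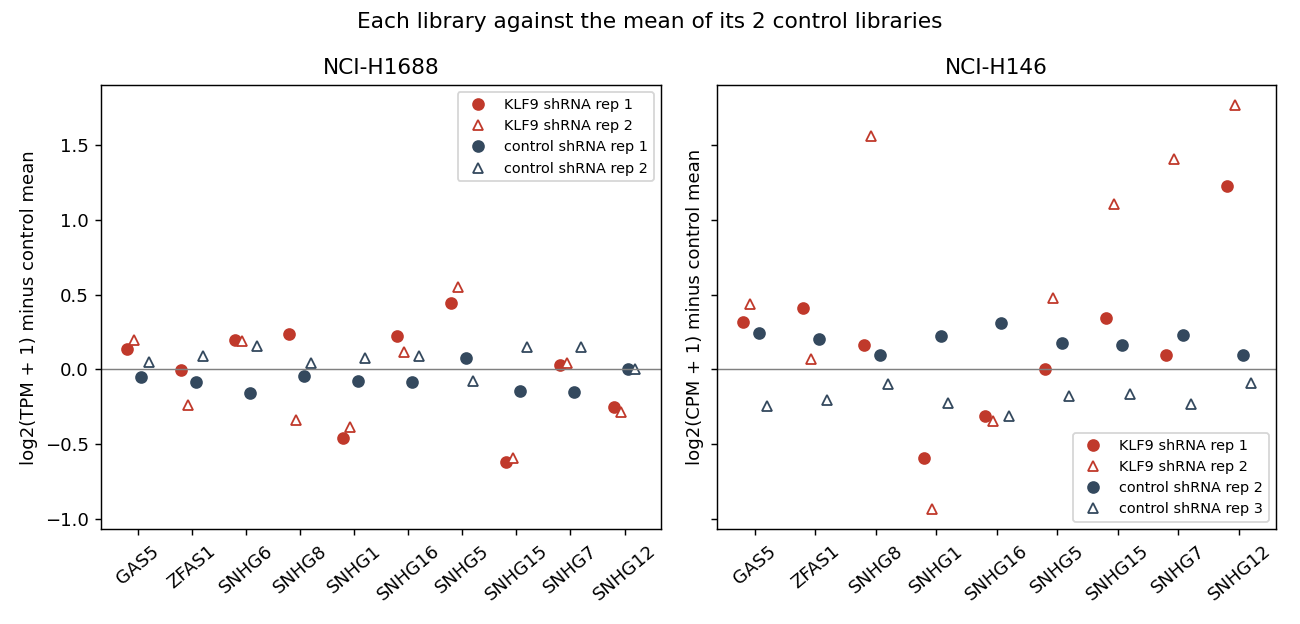
Shift of each host in each library from the mean of its line's control libraries, on the log2(value + 1) scale, with KLF9 shRNA in red and control in dark. In NCI-H146, KLF9 shRNA replicate 2 (triangles) held the highest value of 6 of 9 hosts. The same count was not made over all genes.

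Between the lines, SNHG1 was below control in both, at -0.42 in NCI-H1688 and -0.78 in NCI-H146, and was called in NCI-H1688. GAS5 and SNHG5 were above control in both, at 0.17 and 0.50 in NCI-H1688 and 0.36 and 0.25 in NCI-H146. SNHG12 and SNHG15 were below control in NCI-H1688, at -0.27 and -0.61, and above it in NCI-H146, at 1.85 and 0.79. SNHG16 was above control in NCI-H1688 (0.17) and below it in NCI-H146 (-0.37). The tables were normalized separately and in different units, so these differences between lines were not tested. KLF9 had opposite signs in the lines as well. Over all 8 libraries, centred within each line, the correlation of host pairs ran from -0.710 for SNHG1 and SNHG12 to 0.932 for SNHG7 and SNHG8, and 25 of 36 pairs were above 0. Each pair shares its libraries, so these values describe the libraries together with the hosts. The lines were not scaled to equal spread, so the line with the wider spread weighs more in each value.

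Genes that adjoin a host were compared with it, since the strand used in counting was not given in the sources used here and reads over an overlap cannot be told apart. SLC3A2, the heavy chain of amino acid transporters, starts 188 bases from SNHG1 in the opposite direction. It fell to 613 and 624 TPM in NCI-H1688 libraries labelled KLF9 shRNA, against 784 and 826 TPM in control (log2 difference -0.38, limma adjusted p = 0.0189), beside -0.42 for SNHG1. In NCI-H146 it was at 298 and 682 CPM under KLF9 shRNA, against 303 and 249 CPM in control (0.83, edgeR adjusted p = 0.120), where SNHG1 was at -0.78. ZNFX1, whose start ZFAS1 overlaps by 249 bases, was higher in NCI-H1688, at 14.7 and 15.4 TPM in libraries labelled KLF9 shRNA against 11.0 and 9.99 TPM in control (0.48, limma adjusted p = 0.0374). ZFAS1 was not called there, at -0.12. In NCI-H146, ZNFX1 was at 30.7 and 35.4 CPM under KLF9 shRNA against 41.8 and 44.4 CPM in control, without overlap and not called (-0.38, edgeR adjusted p = 0.356), beside 0.24 for ZFAS1. DIPK1B overlaps SNHG7 by 2685 bases on the other strand. It was higher in NCI-H146, at 122 and 193 CPM under KLF9 shRNA against 78.4 and 67.1 CPM in control (1.11, edgeR adjusted p = 0.0197; 0.75 to 1.42 with 1 library left out, and not called when either control library was left out), beside 0.89 for SNHG7. In NCI-H1688 DIPK1B was at 2.29 and 2.53 TPM in libraries labelled KLF9 shRNA against 0.832 and 1.21 TPM in control (0.76, limma adjusted p = 0.0912), beside 0.03 for SNHG7. ZBTB37, which overlaps GAS5 by 801 bases on the other strand, and TRNAU1AP, which overlaps SNHG12 by 8 bases, were not called in either line.

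The genes whose profile over the 8 libraries, centred within each line, was most like the mean of the 9 hosts tested in both lines were RPAIN (r = 0.990), TUBB3 (0.988), TMEM120A (0.987), COX4I1 (0.986) and UXT (0.985), of 10764 genes compared. None of the 5 was called in either line, and the smallest adjusted p was 0.0949, for UXT in NCI-H146. In NCI-H146, TUBB3 was at 61.0 and 115 CPM under KLF9 shRNA against 62.3 and 39.7 CPM in control. In NCI-H1688 it was at 33.4 and 31.4 TPM in libraries labelled KLF9 shRNA against 31.2 and 34.2 TPM in control. The lines were not scaled to equal spread, so the line with the wider spread, NCI-H146 for TUBB3, weighs more in r. Likeness within each line alone was not tested. These genes were chosen for their likeness to the hosts in the same libraries.

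Other noncoding snoRNA hosts gave 0 higher and 3 lower of 15 tested in NCI-H1688, with a median log2 difference of -0.11, where 9.67% of all genes were called lower. No gene of this list was called with no filter on low values or without the intensity trend. SNHG4 was at 22.4 and 19.5 TPM in libraries labelled KLF9 shRNA against 37.5 and 32.9 TPM in control (-0.72, limma adjusted p = 0.0221). SNHG17 was at 106 and 97.3 TPM in libraries labelled KLF9 shRNA against 130 and 138 TPM in control (-0.39, adjusted p = 0.0296), and SNHG19 was the third. SNHG29, the most abundant of them, was at 611 and 640 TPM in libraries labelled KLF9 shRNA against 523 and 551 TPM in control (0.22, adjusted p = 0.0668). In NCI-H146 none of 11 was called by edgeR, DESeq2 or limma-voom, 5 had an unadjusted edgeR p under 0.05, and the median was 0.43. Without KLF9 shRNA replicate 1, 7 of the 11 were called, against 37.1% of all genes in that fit, and without KLF9 shRNA replicate 2, 1 was called. SNHG29 was at 330 and 659 CPM under KLF9 shRNA against 436 and 300 CPM in control (0.43, adjusted p = 0.423), again highest in KLF9 shRNA replicate 2. The point at 2.53 in NCI-H1688 in the plot of gene lists is SNHG25, named after its values were seen. It was at 60.1 and 7.84 TPM in libraries labelled KLF9 shRNA against 2.53 and 3.57 TPM in control and was not called (adjusted p = 0.140).

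The proteins that bind and assemble snoRNAs were set beside the hosts. Of the 8 core proteins of snoRNA particles, 6 were lower in NCI-H1688 libraries labelled KLF9 shRNA, with a median log2 difference of -0.49, where 9.67% of all genes were called lower. Of the 8, 2 were called with no filter on low values and 1 without the intensity trend. NOP56, a C/D core protein that is itself a snoRNA host, was at 46.0 and 53.0 TPM in libraries labelled KLF9 shRNA against 94.3 and 91.1 TPM in control (-0.90, limma adjusted p = 0.0104). The H/ACA proteins NHP2 (-0.48), NOP10 (-0.48) and GAR1 (-0.58) were also lower, and the methyltransferase FBL was not called (-0.13, adjusted p = 0.274). Of 10 assembly factors, 4 were lower (2 with no filter on low values and 2 without the intensity trend), among them the nucleolar chaperone NOLC1, at 81.5 and 80.0 TPM in libraries labelled KLF9 shRNA against 118 and 119 TPM in control (-0.55, adjusted p = 0.0101). In NCI-H146 none of the 8 core proteins was called by edgeR or limma-voom and 1 was called by DESeq2, 1 had an unadjusted edgeR p under 0.05, and the median was 0.32. Leaving out either KLF9 shRNA library gave 1 called core protein. Of the assembly factors there, the ATPases RUVBL1 (1.46, edgeR adjusted p = 0.00422) and RUVBL2 (0.87, adjusted p = 0.0414) were higher, and the H/ACA factor NAF1 was lower (-1.40, adjusted p = 0.00834). RUVBL1 and RUVBL2 were not called when either control library was left out, nor NAF1 without control replicate 2, with adjusted p of up to 0.177, 0.414 and 0.210 in that order of genes.

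**Figure D4:**
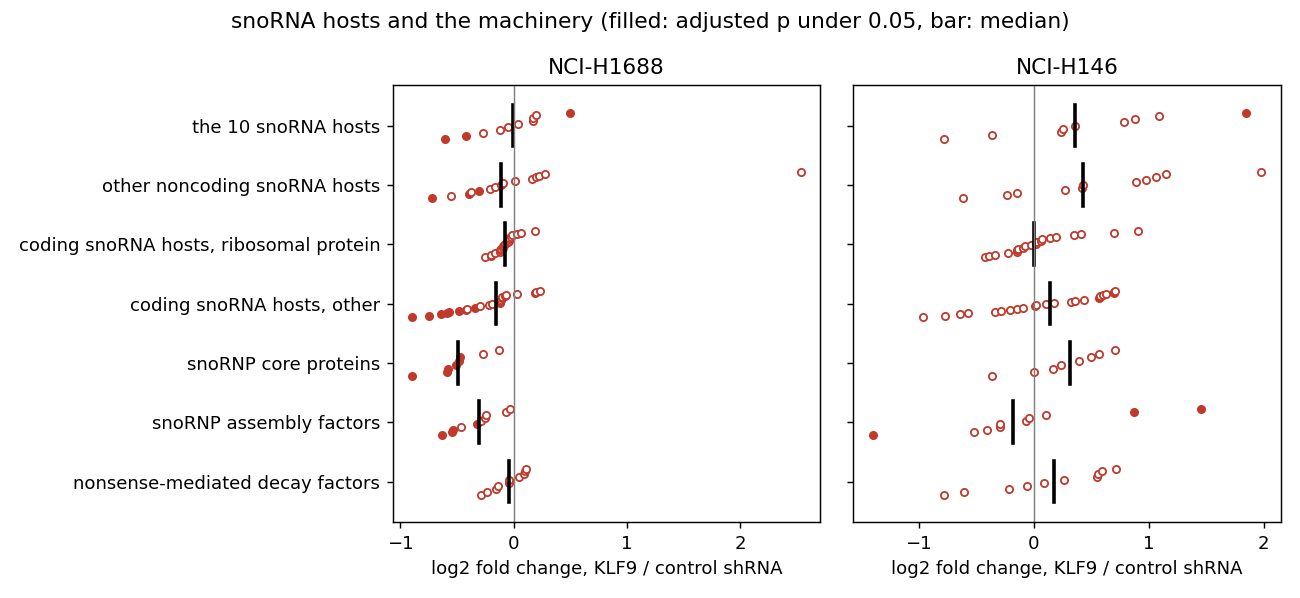
Log2 fold change of every tested gene in the host list and in related gene lists, KLF9 shRNA over control, in NCI-H1688 and NCI-H146; each point is a gene, filled where the adjusted p was under 0.05, and bars are list medians. In NCI-H1688 the core proteins of snoRNA particles had a median of -0.49 and the 10 hosts a median of -0.0082.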

How the data were processed

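Poly(A) RNA was sequenced from 8 libraries of 2 cell lines, in 4 groups of 2. The deposited NCI-H1688 table holds TPM, and whether the authors scaled them further between libraries is not given in the sources; the deposited NCI-H146 table holds read counts per gene. Per the submitters' processing notes, STAR 2.5.1, DESeq2 and GRCh38 (hg38) were used, with no role given; which program and annotation gave the counts is not given in the sources used here. Every column of both tables was used.

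TPM were analysed as log2(TPM + 1) with limma 3.58.1 with an intensity trend, keeping genes whose mean reached 1 TPM. This fold change understates the change of low genes. Of rows sharing a gene name, the one with the highest mean was kept. Counts were filtered with filterByExpr, scaled by TMM and tested with edgeR 4.0.16 (quasi-likelihood F test) in R 4.3.3; CPM are TMM-scaled. Tests were two-sided, fitted on all genes of a line, with Benjamini-Hochberg adjustment over them and a threshold of 0.05. The lines were never joined in a fit. The fits were tested on simulated data. DESeq2 1.42.0 and limma-voom were alternatives.

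The 10 hosts, the gene lists and the tests were chosen with earlier results of these data known. Named were all hosts, adjoining genes (overlapping, or starting within 1 kb in the opposite direction), hosted snoRNAs, the 5 most alike genes, and of each list up to 4 called genes with the smallest adjusted p and up to 2 uncalled with the highest mean. Gene names were matched through GENCODE 29 and RefSeq. Some marker results are not reported here.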

Additional observations from a re-analysis of the deposited data

Results flagged for a closer look

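SNHG12, SNHG15 and SNHG16 had opposite directions in the 2 lines. In each line both KLF9 shRNA libraries lay on the same side of both controls, and the side differed between the lines. The difference between the lines was not tested for any of these hosts, since the tables hold different units. The groups did not overlap for 62.7% of all genes in NCI-H1688 and 62.5% in NCI-H146. How many genes separated in opposite directions was not counted. SNHG12 had a log2 fold change of -0.27 in NCI-H1688 and 1.85 in NCI-H146. SNHG15 had -0.61 in NCI-H1688 and 0.79 in NCI-H146. SNHG16 had 0.17 in NCI-H1688 and -0.37 in NCI-H146, where it was 0.02 without control replicate 2. Its nearest NCI-H146 values were 80.3 CPM under KLF9 shRNA and 80.6 CPM in control. KLF9 itself was at 0.92 in NCI-H1688, against its label, and at -1.17 in NCI-H146.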

How the results depend on the processing

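In NCI-H1688 the 3 calls became 0 with no filter on low values and 0 with limma without a trend, where 4 hosts had an unadjusted p under 0.05 in each, and 2 to 4 under the other 6 settings with all libraries. Leaving out 1 library gave 0 to 0 called hosts by limma, with 3 to 6 at an unadjusted p under 0.05, while the called genes of the whole line fell to between 0 and 24. The host median ran from -0.10 to 0.09. In NCI-H146, 1 host (SNHG12) was called under all 6 settings with all libraries, 5 without KLF9 shRNA replicate 1, and 0 when either control library was left out (0 to 5 in all, with 2 to 5 at an unadjusted p under 0.05). There the called genes of the whole line ran from 51 to 5026, and the host median ran from 0.13 to 0.67 with 1 library left out, against 0.36 to 0.39 under the other settings. A group left with 1 library was assumed to vary like the other. Directions that turned were all of uncalled hosts. SNHG8 in NCI-H1688 was at 0.071 with quantile normalization, 0.020 with mitochondrially encoded genes left out, and -0.34 to 0.24 with 1 library left out. With 1 library left out, SNHG7 in NCI-H1688 ran from -0.12 to 0.19, SNHG16 in NCI-H146 from -0.65 to 0.019, and SNHG5 in NCI-H146 from -0.0033 to 0.49. The cause of these changes was not tested.

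In NCI-H1688 the replicate numbers did not pair the libraries (correlation of same-numbered deviations -0.0051), and a fit with the replicate block called 2 hosts, SNHG1 and SNHG15, with SNHG5 at an adjusted p of 0.0572; over all genes it called 1218, against 2366 without the block. With the block, 3 of 8 core proteins, 2 of 10 assembly factors, 1 of 15 other noncoding hosts and 5 of 24 other coding hosts were called. No paired analysis was possible because the NCI-H146 groups share only the replicate number 2. Over all genes, NCI-H1688 calls were 943 with no filter and 834 without a trend, and NCI-H146 calls were 1320 with total counts only. In NCI-H146, SNHG12 rested on 39 to 176 counts, the fewest of the 9 hosts.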

Other observations

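Related lists that the report does not use for a comparison gave these values. Over all genes tested, 9.67% were called lower and 6.36% higher in NCI-H1688. The shares in NCI-H146 were 9.12% lower and 8.01% higher. Of 20 ribosomal protein genes that host snoRNAs, none was called by limma in NCI-H1688 (3 at an unadjusted p under 0.05, median -0.08) or by edgeR, DESeq2 or limma-voom in NCI-H146 (0 at an unadjusted edgeR p under 0.05, median -0.0003). Of 24 other coding hosts, 8 were lower in NCI-H1688 libraries labelled KLF9 shRNA (median -0.16; 4 called with no filter on low values and 3 without the intensity trend), led by NOP56, PPAN (-0.64), NCL (-0.57) and WDR43 (-0.75), and none was called by edgeR in NCI-H146 (5 at an unadjusted p under 0.05, median 0.14), where DESeq2 called 2 and limma-voom 1. None of 10 nonsense-mediated decay factors was called by limma in NCI-H1688 (2 at an unadjusted p under 0.05, median -0.04) or by edgeR, DESeq2 or limma-voom in NCI-H146 (3 at an unadjusted edgeR p under 0.05, median 0.18). Of 11 coding decay targets, 6 were lower in NCI-H1688, among them UPP1 (-0.83) and GADD45A (-0.87), and DDIT3 was higher (0.55, adjusted p = 0.0446). These 7 calls were 5 with no filter on low values and 2 without the intensity trend. In NCI-H146, 3 of the 11 were lower: DDIT3 (-1.73), ATF3 (-1.69) and GADD45B (-1.31), none of which was called without control replicate 2 (adjusted p 0.218, 0.294 and 0.442). A list of 11 genes with a terminal oligopyrimidine motif, called translation factors here, also holds NPM1, which is not one. Of these 11, NPM1 was lower in NCI-H1688 (-0.43, limma adjusted p = 0.0392). None was called by edgeR, DESeq2 or limma-voom in NCI-H146, with 1 at an unadjusted edgeR p under 0.05. Of 49 other ribosomal protein genes, RPL6 and RPL24 were lower in NCI-H1688 and RPS21 was higher in NCI-H146, where it was at 119 and 579 CPM under KLF9 shRNA against 132 and 109 CPM in control. RPS21 was at -0.02 without KLF9 shRNA replicate 2, with an adjusted p of 0.977. Neither omitting the filter on low values nor omitting the intensity trend left NPM1, RPL6 or RPL24 called. Without KLF9 shRNA replicate 1, where 37.1% of all genes were called in NCI-H146, calls there were 2 of the 20 ribosomal protein hosts, 5 of the 24 other coding hosts, 3 of the 10 decay factors, 5 of the 11 translation factors and 17 of the 49 other ribosomal protein genes. Without KLF9 shRNA replicate 2 the calls were 1 ribosomal protein host, 4 other coding hosts, 2 decay factors, 0 translation factors and 1 other ribosomal protein gene.

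MYC, a transcription factor known to drive ribosome production, was at 196 and 209 TPM in NCI-H1688 libraries labelled KLF9 shRNA, against 285 and 277 TPM in control (-0.47, limma adjusted p = 0.0150). Its antagonists MXD1 (0.93) and MXI1 (0.72) were higher there. These 3 calls were 1 with no filter on low values and 0 without the intensity trend. In NCI-H146, MYC was not called (-0.54, edgeR adjusted p = 0.442), and MXD1 was lower, at 7.31 and 7.30 CPM under KLF9 shRNA against 80.3 and 54.2 CPM in control (-3.20, adjusted p = 0.000127), a call that held with each library left out. MAX (-0.95, adjusted p = 0.0338) and MNT (-1.13, adjusted p = 0.0136) were also lower in NCI-H146, and neither was called when either control library was left out. Of the epithelial markers, KRT8 (-0.92) and KRT18 (-0.80) were lower, CDH1 (0.46, adjusted p = 0.0348) was higher and EPCAM was not called in NCI-H1688. The list summed to 1451–1480 TPM in libraries labelled KLF9 shRNA and 2431–2519 TPM in control. In NCI-H146 it summed to 265–307 CPM under KLF9 shRNA and 197–292 CPM in control, and CDH1 (1.95, adjusted p = 0.0193; not called when either control library was left out) was the 1 called. COL1A1, a fibroblast collagen, was at 19.7 and 17.5 TPM in NCI-H1688 libraries labelled KLF9 shRNA against 12.1 and 13.8 TPM in control (0.49, adjusted p = 0.0488). In NCI-H146 it was at 24.0 and 28.3 CPM under KLF9 shRNA against 105 and 48.9 CPM in control (-1.55, adjusted p = 0.00827; not called without control replicate 2). The leukocyte marker PTPRC was not called there (-0.29). The part of these markers in the host values was not tested.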
